A study of Mus musculus with 57 samples.

Results

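The stearoyl-CoA desaturase family of the mouse holds 4 genes, Scd1, Scd2, Scd3 and Scd4, out of 52853 genes counted by RNA sequencing of adipose tissue. The genes were taken by symbol. The family was chosen because Scd3 was among the largest rises in knock-in (KI) mice in all 3 count tables. Every comparison of Scd3 between KI and wild-type (WT) mice is therefore given as a description, without a test. The same holds for comparisons of Scd3 among KI mice, and those among WT mice, at very low counts, carry no test either. The other members entered by name, and Scd1 and Scd2 were tested, while Scd4 had too few counts.

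Stearoyl-CoA desaturases sit in the membrane of the endoplasmic reticulum and place a double bond in saturated acyl-CoA, which turns palmitate into palmitoleate and stearate into oleate. The electrons come from NADH through cytochrome b5 reductase and cytochrome b5. Scd1 is the main form of adipose tissue and liver, and its transcription responds to insulin, to sterols and to the factors SREBP1c, LXR and ChREBP. Scd2 is best known from brain and early development, Scd3 from sebaceous and Harderian glands, and Scd4 from heart.

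Male KI mice, homozygous for the Mfn2-R707W change, were set against WT mice. Mfn2 encodes a mitochondrial fusion protein. The KI line came from 1 CRISPR-Cas9 founder, was bred and later re-derived on C57BL/6J, and also carries a silent change in Mfn2 for genotyping. The study also reports a further upstream silent change, found on sequencing at the founder stage. Mice went, per the labels at 5 weeks of age, onto a high-fat diet (HFD, 45% of energy as fat) or chow for 6 months, and were fasted for 6 hours before tissue was taken. Brown adipose tissue (BAT) on HFD came from 6 WT and 6 KI mice. Inguinal white adipose tissue (IngWAT) came from 8 WT and 8 KI mice on HFD and from 7 WT and 6 KI mice on chow, which makes 41 samples, 1 per mouse and tissue, in 6 groups. IngWAT on HFD was sequenced as 2 technical libraries per mouse that share 1 column of counts.

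Library totals ranged from 8042591 to 25680411 counts, and IngWAT on HFD was the deepest set, with at least 17572752 per mouse. Mfn2 was between 115 and 567.6 CPM (counts per 1000000 counts of a library) in all mice and its difference between genotypes was not called in any set (log2 fold changes of 0.29, 0.34 and 0.36; edgeR adjusted p of 0.113, 0.0114 and 0.0840 in BAT, IngWAT on HFD and IngWAT on chow). The counts cannot show the codon change. The 7 adipocyte markers summed to at least 17674 CPM in every mouse, and the 6 brown adipocyte markers to at least 9325 CPM in BAT against at most 492 CPM in IngWAT. Markers of lymphocytes, skeletal muscle or simple epithelium stood more than 10 times above the group median in 13 of the 41 libraries, 2 WT and 2 KI of BAT, 2 WT and 3 KI of IngWAT on HFD, and 1 WT and 3 KI of IngWAT on chow. Skeletal muscle markers reached 56805 CPM in chow KI mouse 4, and the fits, the gene lists and the ratio of Scd1 to Scd2 were also computed without these 13 libraries. Each value is from bulk tissue, in which fewer cells of a type and less RNA per cell cannot be told apart, and p-values measure the spread between the mice sampled.

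The 4 genes lie together on chromosome 19 of GRCm38, within 204422 bases (chr19:44203288-44407709). In order along the chromosome these are Scd3 (ENSMUSG00000025202, chr19:44203288-44244016, + strand), Scd2 (ENSMUSG00000025203, chr19:44293676-44306864, + strand), Scd4 (ENSMUSG00000050195, chr19:44333092-44346743, + strand) and Scd1 (ENSMUSG00000037071, chr19:44394451-44407709, - strand). The only other counted gene that overlaps this stretch is the microRNA gene Mir5114, which had no counts. Each member has 6 exons in its longest coding transcript, and the coding sequences run from 353 codons in Scd4 to 359 in Scd3.

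How far reads can be told apart between members bears on every value here, so 2 stretches of 60 coding bases are shown, taken from GENCODE vM21 transcripts. Bases are counted from the A of the start codon, and capitals mark bases that differ from Scd1. The stretch where Scd1 and Scd3 were most alike is within a run of 185 bases that these genes share without a difference:
Scd1, bases 463 to 522: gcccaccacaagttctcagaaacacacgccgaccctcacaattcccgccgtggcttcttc
Scd2, bases 472 to 531: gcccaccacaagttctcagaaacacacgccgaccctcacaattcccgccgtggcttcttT
Scd3, bases 475 to 534: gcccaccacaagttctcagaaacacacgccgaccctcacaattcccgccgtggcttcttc
Scd4, bases 457 to 516: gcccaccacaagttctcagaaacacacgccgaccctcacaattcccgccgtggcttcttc

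The stretch where Scd1 and Scd3 were least alike held 18 differences in Scd3, 10 in Scd2 and 17 in Scd4:
Scd1, bases 295 to 354: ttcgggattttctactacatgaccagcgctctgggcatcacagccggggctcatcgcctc
Scd2, bases 304 to 363: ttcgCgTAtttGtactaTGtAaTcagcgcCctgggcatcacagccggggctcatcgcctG
Scd3, bases 307 to 366: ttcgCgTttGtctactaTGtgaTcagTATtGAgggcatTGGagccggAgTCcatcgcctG
Scd4, bases 289 to 348: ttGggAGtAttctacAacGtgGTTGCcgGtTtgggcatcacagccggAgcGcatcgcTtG

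Over the whole coding sequence, identity was highest between Scd1 and Scd3, at 90.5%, and lowest between Scd2 and Scd4, at 82.8%. Of all windows of 150 bases, the length of 1 read, 98.9% in Scd3 and 99.2% in Scd1 were found in no other gene, and in Scd2 and Scd4 all were. At 50 bases, the shares without a match elsewhere were 95.3% for Scd1, 96.0% for Scd2, 93.3% for Scd3 and 93.7% for Scd4. A pseudogene of the family, AC123853.3 (chr19:44252517-44261446, + strand), lies between Scd3 and Scd2 and has no entry among the counted genes, and 1.59% of the 50-base windows of Scd1 also occur in it. At 150 bases the only windows shared within the family were 36 of Scd1 and Scd3, all in the coding run shown.

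Scd1 carried nearly all of the family's counts in every mouse. Its share of the summed Scd1 to Scd4 counts was lowest, at 96.5%, in chow WT mouse 4, and group means ran from 98.5% in chow KI mice to 99.6% in BAT WT mice and in KI mice on HFD in IngWAT. The family as a whole took up between 0.547% ± 0.551 (SD, n = 6, BAT KI) and 1.52% ± 0.366 (SD, n = 8, IngWAT HFD KI) of all counts in a library.

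Per kilobase of gene length, the order of levels was Scd1 above Scd2 in all 41 samples. The mean level in CPM per kb ran from 1516 (BAT KI) to 3126 (BAT WT) for Scd1, and from 6.72 (BAT KI) to 29.9 (IngWAT HFD WT) for Scd2. Scd1 thus stood 79.04 times (chow KI) to 344 times (IngWAT HFD KI) above Scd2 by group mean. Scd3 came next in every KI group, at 3.70 CPM per kb in BAT, 0.517 in IngWAT on HFD and 1.69 in IngWAT on chow, and in each of these it was above Scd4 in all KI mice. In WT mice Scd3 and Scd4 were both at most 0.121 CPM per kb by group mean, and their order differed between groups.

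**Figure D1:**
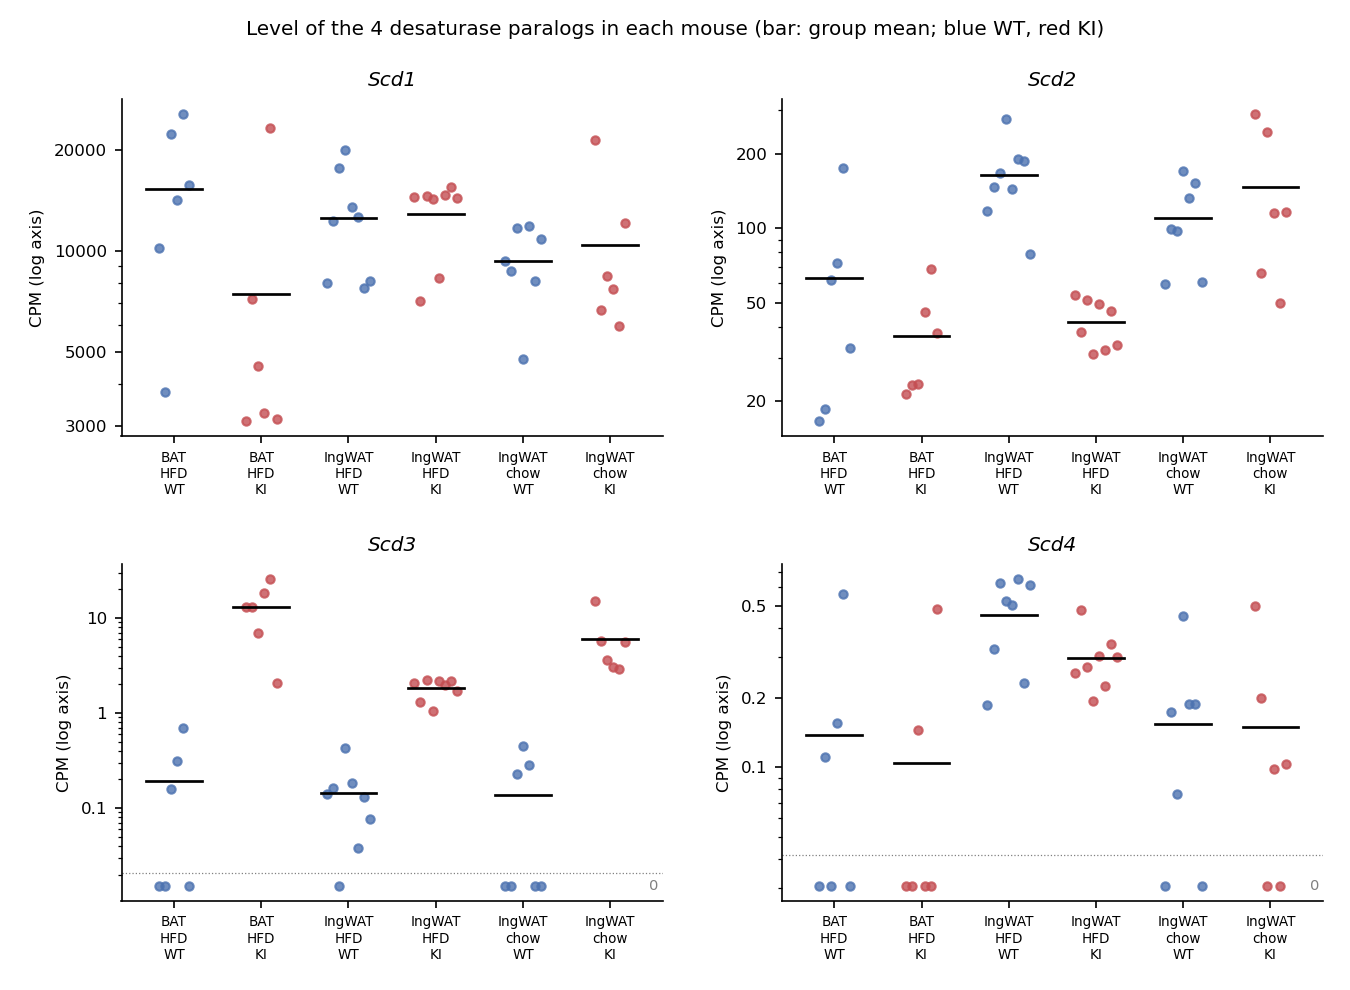
Level of each paralog in CPM (log axis; points below the dotted line are mice with 0 counts; blue WT, red KI) in each of the 41 samples, by group, with a bar at the group mean. Scd1 is at or above 3119 CPM in every mouse, Scd2 in IngWAT on HFD is lower in all 8 KI mice than in any WT mouse, and Scd3 is higher in every KI mouse than in any WT mouse of its set.

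Scd3 was close to absent in WT adipose tissue and present in KI adipose tissue in all 3 sets. In BAT on HFD, Scd3 in the 6 WT mice was lowest at 0, with a median of 0.0802 and a highest value of 0.700 CPM, and the whole WT group had 8 Scd3 counts. In the 6 KI mice of that set the lowest, median and highest values were 2.09, 13.03 and 25.6 CPM. The KI mean of 13.1 ± 8.25 CPM (SD, n = 6) was 67.4 times the WT mean, with no overlap between the genotypes.

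In IngWAT on HFD, Scd3 in the 8 WT mice ranged from 0 over a median of 0.136 to 0.426 CPM, with 27 counts in the group. The 8 KI mice lay between 1.04 and 2.21 CPM, with a median of 2.03 and a mean of 1.84 ± 0.443 CPM (SD, n = 8), which was 12.7 times the WT mean. This was the least variable of the KI groups.

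In IngWAT on chow, 4 of the 7 WT mice had no Scd3 count, the highest had 0.450 CPM, and the group had 12 counts. The 6 KI mice had a lowest value of 2.89, a median of 4.57 and a highest of 15.1 CPM, the last in chow KI mouse 1. The KI mean of 5.99 ± 4.63 CPM (SD, n = 6) was 43.5 times the WT mean, and every KI mouse was above every WT mouse.

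The log2 fold changes fitted by edgeR were 5.93 (SE 0.733) in BAT, 3.65 (SE 0.381) in IngWAT on HFD and 5.22 (SE 0.678) in IngWAT on chow. Scd3 passed the low-count filter through its KI libraries, and these values are what chose the family. The share of all genes tested in which every KI mouse was above every WT mouse was 2.64% in BAT, 2.09% in IngWAT on HFD and 2.75% in IngWAT on chow. Because the WT groups rest on 8, 27 and 12 counts, single WT mice move these folds. Without BAT WT mouse 5, which had 5 of the 8 counts, the fitted log2 fold change in BAT was 6.93, and without IngWAT HFD WT mouse 4, which had 9 counts, that of IngWAT on HFD was 4.06. Without the 13 libraries with markers of other tissues the values were 5.48, 3.49 and 5.54.

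Because Scd1 and Scd3 share sequence and Scd1 is far more abundant, their counts were set side by side. The WT mouse with the most Scd1 counts, IngWAT HFD WT mouse 4 with 422804, had 9 Scd3 counts, while BAT KI mouse 1 had 22389 Scd1 counts and 93 Scd3 counts. Per 100000 Scd1 counts, the WT group means of Scd3 were 0.941 in BAT, 1.19 in IngWAT on HFD and 1.97 in IngWAT on chow. The KI group means were 246, 15.1 and 55.5. In each set the lowest KI mouse (66.0, 7.31 and 39.4) was above the highest WT mouse (2.74, 2.13 and 9.46). The genotypes did not overlap in this ratio in any set. Its Scd3 counts are the values that chose the family, so this is a description and not separate support. Set against Scd2, Scd3 in KI mice came to 38.2 ± 19.8 counts per 100 Scd2 counts in BAT (SD, n = 6), and to 4.42 ± 0.921 (SD, n = 8) and 4.77 ± 2.54 (SD, n = 6) in IngWAT on HFD and on chow.

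**Figure D2:**
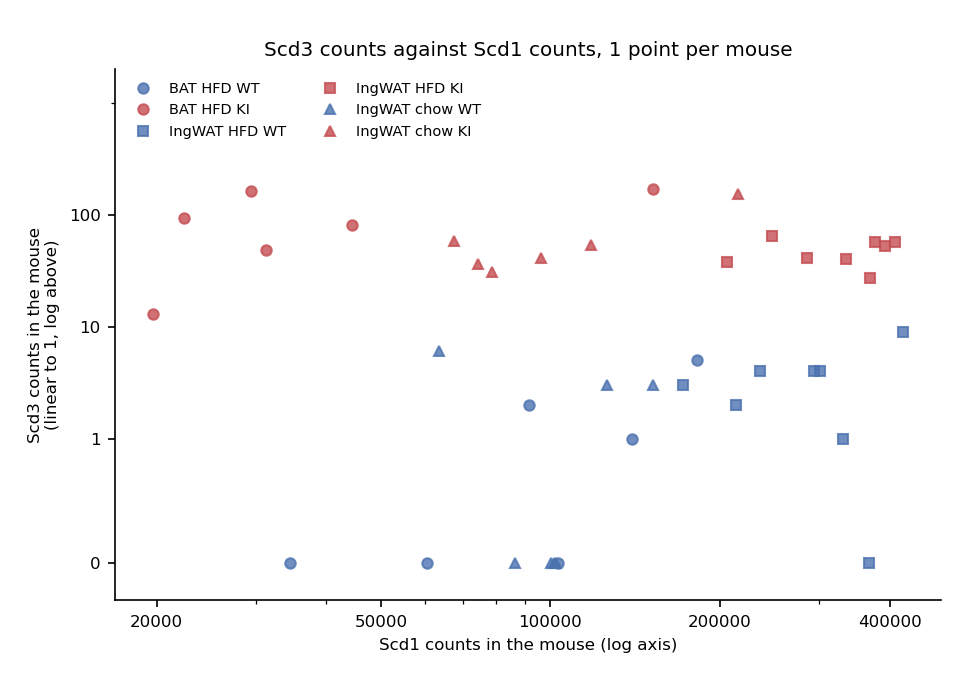
Scd3 counts (vertical axis, linear up to 1 and logarithmic above) against Scd1 counts (log axis), 1 point per mouse, with shape for the tissue and diet and colour for the genotype. All WT mice have at most 9 Scd3 counts over their range of Scd1 counts (34552 to 422804), and all KI mice have at least 13. KI mice of BAT reach lower Scd1 counts, down to 19684.

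Because Scd3 is known from sebaceous glands, the markers of that gland are given beside it. Awat1, a wax synthase of the gland, was at 0 in every library of 5 of the 6 groups. The 6 sebaceous markers summed to between 45.5 and 57.6 CPM in BAT KI mice and between 46.2 and 61.9 CPM in BAT WT mice. They summed to 29.8 to 42.3 CPM in KI and 31.8 to 53.0 CPM in WT mice of IngWAT on HFD, and to 29.1 to 52.6 and 27.5 to 59.5 CPM on chow. Of these markers 2, 3 and 3 could be tested in BAT, IngWAT on HFD and IngWAT on chow, none was called higher in KI mice, and 1, Krt79, was called lower in IngWAT on HFD. The 6 epidermal markers summed to 2.09 to 4.81 CPM in WT and 2.28 to 4.36 CPM in KI mice of BAT. Of these, Krt5, Krt14 and Krt15 were at 0 in every BAT library. In IngWAT on HFD the epidermal sums were 2.11 to 3.75 CPM in WT and 1.51 to 20.95 CPM in KI mice. On chow they were 3.02 to 6.22 CPM in WT and 3.93 to 6.95 CPM in KI mice. The 6 brown adipocyte markers summed to 78.3 to 492 CPM in KI mice and to 18.1 to 62.5 CPM in WT mice of IngWAT on chow. Cidea was called higher there, as 1 of 3 tested, where 3.23% of all genes were called. In IngWAT on HFD the sums were 20.1 to 45.9 CPM in KI and 11.3 to 22.7 CPM in WT mice. Cidea was again called higher, as 1 of 3 tested, where 11.5% of all genes were called. Elovl3, of the same list but not among these 3, was called lower there without the libraries with markers of other tissues. In BAT these markers summed to 9325 CPM or more in both genotypes, and none of 6 was called. The part of sebaceous, epidermal or brown adipocyte RNA in the level of Scd3 was not tested.

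Among KI mice, Scd3 is described between tissues and diets without a test, because its KI values chose the family. It was higher in BAT than in IngWAT on HFD by 2.82 on the log2 scale. The ranges of 2.09 to 25.6 and 1.04 to 2.21 CPM overlapped only at their ends, in BAT KI mouse 6. Of all genes, 59.1% were called in that comparison and 28.4% were called higher in BAT. Within KI IngWAT, Scd3 was lower on HFD than on chow by a log2 fold change of -1.66, with no overlap between the 8 and the 6 mice. That comparison called 30.6% of all genes and 15.4% as lower. The log2 fold change was -1.14 without chow KI mouse 1 and -1.40 without the libraries with markers of other tissues. In WT mice the fits gave 0.43 for BAT over IngWAT and -0.04 for HFD over chow, at counts of 9 or fewer in a mouse. A difference was not detectable at this depth. No test is given for these values, because Scd3 entered the joined fits through its KI libraries. Tissue and diet each coincide with a separate set of libraries and cannot be told apart from it. The sources used here do not say if BAT and IngWAT were taken from shared animals, and the mice were treated as independent.

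Scd2 fell in KI mice in IngWAT on HFD, the only one of the 3 sets in which its genotype contrast was called. The 8 WT mice had a lowest value of 78.8, a median of 157 and a highest of 276 CPM. In the 8 KI mice these were 30.95, 42.0 and 53.9 CPM, so every KI mouse was below every WT mouse, and the lowest WT mouse was 1.46 times the highest KI mouse. The WT mean of 163 ± 58.3 CPM (SD, n = 8) was 3.90 times the KI mean of 41.9 ± 9.23 CPM (SD, n = 8).

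The fitted log2 fold change of Scd2 was -1.96 (SE 0.209, 95% interval -2.40 to -1.52, edgeR adjusted p = 4.39e-06). Scd2 was called and Scd1 was not, in a set where 11.5% of 16471 genes were called, 5.24% as lower, and where 2.42% of genes had every KI mouse below every WT mouse. Leaving out each mouse in turn gave -2.06 to -1.82, and leaving out the libraries with markers of other tissues gave -2.03 (adjusted p = 0.000671). Fibroblast and preadipocyte markers summed to 1679 to 2969 CPM in WT and 1392 to 2534 CPM in KI mice of this set, and macrophage markers to 586 to 986 and 409 to 1273 CPM. The genotypes overlapped in both sums, but the macrophage marker Itgax was called lower in KI mice, with medians of 53.5 CPM in WT and 17.2 CPM in KI. Of the 7 adipocyte markers, 3 were called lower and 1 higher. The part of these cells in the fall of Scd2 was not tested.

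In BAT, Scd2 in WT mice had a lowest, median and highest value of 16.7, 47.2 and 175 CPM, against 21.5, 30.5 and 68.7 CPM in the KI group. All 6 KI mice were within the WT range, and the log2 fold change of -0.80 (95% interval -2.05 to 0.45, edgeR adjusted p = 0.417) was not called. In IngWAT on chow, the WT mice had 59.3, 99.4 and 169.6 CPM and the KI mice 49.7, 116 and 289 CPM. The highest KI values came from mice 1 and 3, and the log2 fold change of 0.40 (95% interval -0.48 to 1.27, adjusted p = 0.590) was not called either and was -0.38 without the libraries with markers of other tissues.

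The KI effect on Scd2 in IngWAT was more negative on HFD than on chow by -2.35 on the log2 scale (95% interval -3.28 to -1.42, edgeR adjusted p = 0.00506), in a test of the difference that called 0.632% of 17400 genes and 0.425% in this direction. The call was near the threshold of 0.01. It was lost without chow WT mouse 3, chow WT mouse 7, chow KI mouse 1 or chow KI mouse 3 (-2.32, -2.25, -2.05 and -2.14, adjusted p from 0.0101 to 0.0130), in a fit of all 6 groups together (-2.38, adjusted p = 0.0131) and without the libraries with markers of other tissues (-1.66, adjusted p = 0.138). Between tissues on HFD, the KI effect in BAT minus that in IngWAT was 1.18 (95% interval 0.03 to 2.33, adjusted p = 0.212) and was not called, where 2.82% of all genes were.

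Within genotypes, Scd2 was lower on HFD than on chow in KI IngWAT (log2 fold change -1.78, 95% interval -2.45 to -1.11, edgeR adjusted p = 7.93e-05). In WT IngWAT the same comparison gave 0.57 (adjusted p = 0.148) where 28.2% of all genes were called. The KI value came to -0.98 (adjusted p = 0.0603) without the libraries with markers of other tissues. Scd2 was lower in BAT than in IngWAT in WT mice on HFD (-1.39, adjusted p = 0.00413), where 55.9% of all genes were called and 29% as lower. That call was lost without BAT WT mouse 1, 2 or 6 (-1.19, -1.20 and -1.26, adjusted p from 0.0106 to 0.0124) and without the libraries with markers of other tissues (-0.93, adjusted p = 0.0842). In KI mice it was -0.20 (adjusted p = 0.659).

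Scd1, the abundant member, was not called between genotypes in any set. In IngWAT on HFD, its lowest, median and highest values were 7763, 12441 and 20027 CPM for the WT group and 7068, 14429 and 15539.6 CPM for the KI group. The genotypes overlapped, and the log2 fold change was 0.05 (95% interval -0.40 to 0.50, edgeR adjusted p = 0.907). In IngWAT on chow the values were 4758, 9303 and 11870.5 CPM for WT against 5979.8, 8067 and 21391 CPM for KI, with a log2 fold change of 0.14 (95% interval -0.47 to 0.76, adjusted p = 0.806). In that set 3.23% of 14629 genes were called, and neither Scd1 nor Scd2 was, by edgeR or DESeq2, nor did either have an unadjusted p below 0.05.

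In BAT the spread of Scd1 was wide. WT mice had 3807, 14946 and 25512 CPM and KI mice 3119, 3919 and 23174 CPM. In 5 of the 6 KI mice Scd1 was at or below 7203 CPM, and mouse 5 stood apart at 23174 CPM, within the WT range. The WT mean was 15291 ± 7922 CPM (SD, n = 6) and the KI mean 7415 ± 7877 CPM (SD, n = 6), and the log2 fold change of -1.09 (95% interval -2.33 to 0.16, edgeR adjusted p = 0.267) was not called. Neither Scd1 nor Scd2 was called in BAT, where 1.83% of 13267 genes were, and neither had an unadjusted p below 0.05 (0.0811 and 0.187) or was called by DESeq2. Without KI mouse 5 the log2 fold change of Scd1 was -1.86 (adjusted p = 0.0182).

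The KI effect on Scd1 in BAT minus that in IngWAT on HFD was -1.10 (95% interval -2.29 to 0.09, edgeR adjusted p = 0.271), and without BAT KI mouse 5 it was -1.90 and was called (adjusted p = 0.00968). Among KI mice on HFD, Scd1 in BAT over IngWAT was -0.81 (adjusted p = 0.0843), and -1.61 without that mouse (adjusted p = 0.000156). The difference of the KI effect between diets was -0.08 (95% interval -0.84 to 0.69, adjusted p = 0.948). Scd1 was not called between diets in WT (0.43, adjusted p = 0.193) or KI IngWAT (0.35, adjusted p = 0.311), or between tissues in WT mice (0.29, adjusted p = 0.549).

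**Figure D3:**
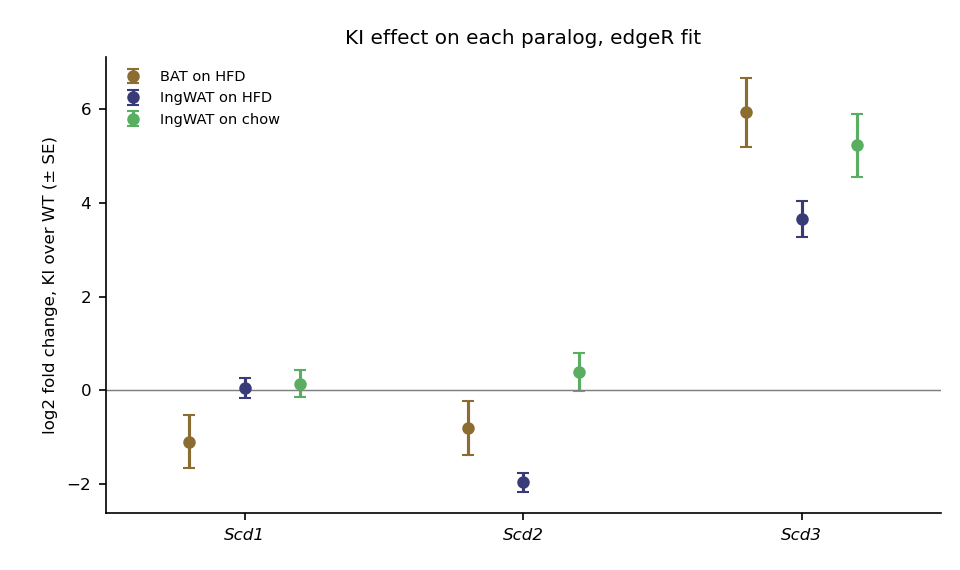
Log2 fold change of Scd1, Scd2 and Scd3 (KI over WT, edgeR) in each set, with bars of 1 standard error. Scd2 in IngWAT on HFD lies at -1.96, Scd1 in IngWAT at 0.05 and 0.14, and Scd3 at 3.65 to 5.93, the last without a test because it chose the family.

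The ratio of Scd1 to Scd2 within a library does not depend on how libraries are scaled. In IngWAT on HFD the log2 ratio was 6.25 ± 0.44 in WT and 8.25 ± 0.565 in KI mice (SD, n = 8 each), a difference of 1.99 or 3.98-fold, and all 8 KI mice were above all 8 WT mice. The 2-sided exact permutation test gave p = 0.000155, the smallest it can give here, and 0.000466 after adjustment over the 3 sets. In IngWAT on chow the means were 6.45 ± 0.928 (n = 7) and 6.28 ± 0.654 (n = 6), a difference of -0.18 (exact permutation p = 0.698). In BAT they were 8.19 ± 0.814 and 7.33 ± 0.933 (n = 6 each), a difference of -0.86 (exact permutation p = 0.115, adjusted 0.172), and 3 of the 6 KI mice were below every WT mouse.

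**Figure D4:**
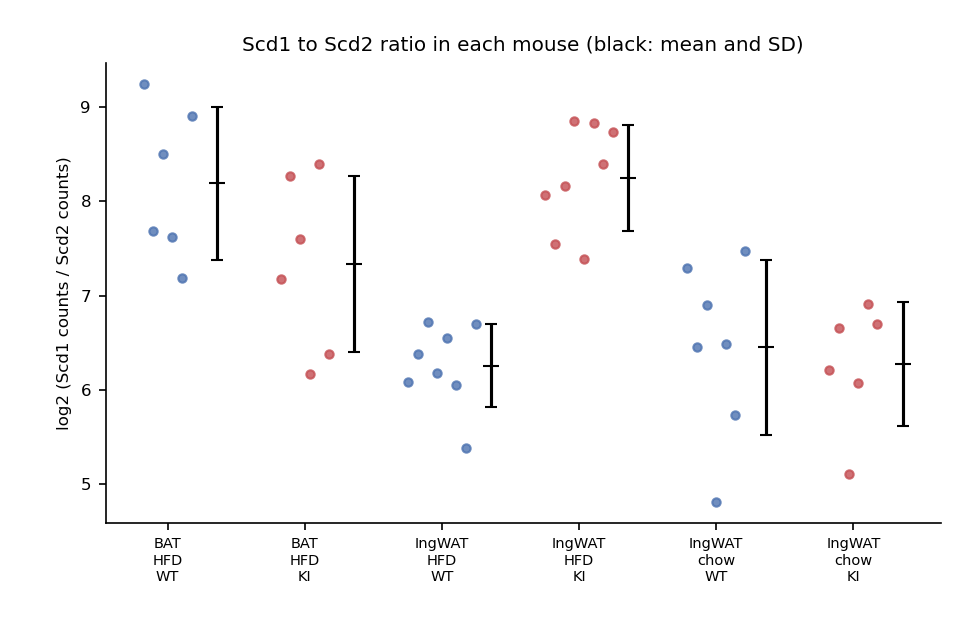
Log2 ratio of Scd1 to Scd2 counts in each mouse, by group, with the mean and SD in black. KI mice of IngWAT on HFD lie above all WT mice of that set, with means of 8.25 and 6.25, while the genotypes overlap in BAT and on chow.

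Ordered by mean level, no neighbouring groups differed beyond their spread for Scd1, which ran from BAT WT, IngWAT HFD KI, IngWAT HFD WT, chow KI and chow WT down to BAT KI, and each pair of neighbours overlapped. For Scd2 the order was IngWAT HFD WT, chow KI, chow WT, BAT WT, IngWAT HFD KI and BAT KI, again with an overlap at each step. For Scd3 the 3 KI groups came ahead of the WT groups, BAT KI overlapped chow KI, and ranges did not overlap between chow KI and IngWAT HFD KI or between IngWAT HFD KI and the highest WT group, BAT WT.

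Scd4 was at the limit of detection. Its counts summed to 6 in BAT WT, 4 in BAT KI, 13 in chow WT and 9 in chow KI mice, and to 87 in WT and 62 in KI mice of IngWAT on HFD, the deeper set. It had 0 counts in 3 WT and 4 KI mice of BAT and in 2 mice of each genotype on chow, and a count of 0 allows up to 3 counts. Scd4 did not pass the filter on low counts in any set on its own and no test between genotypes is given for it. In IngWAT on HFD the WT level of 0.457 ± 0.184 CPM (SD, n = 8) overlapped the KI level of 0.296 ± 0.0879 CPM (SD, n = 8). Its counts entered the joined fits through IngWAT on HFD, where both level and depth were higher, so no test between diets or tissues is given for it.

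Genes that make the substrate of the desaturases, that carry their electrons, that desaturate other bonds, that regulate Scd or that use its products were taken from lists and are given by counts, to be read beside the share of all genes called, 1.83% in BAT, 11.5% in IngWAT on HFD (5.24% lower) and 3.23% in IngWAT on chow. Medians of all genes were -0.01, 0.01 and -0.01. Of the genes listed for the supply of palmitate and stearate, none of 17 was called in BAT (1 at an unadjusted p below 0.05, none by DESeq2). Their median log2 fold change was -0.06 against -0.01 over all genes. In IngWAT on HFD, 1 of 16 was higher and 6 were lower in KI mice, with a median of -0.21 against 0.01. The one that rose was Acacb, the mitochondrial acetyl-CoA carboxylase (log2 fold change 1.00, edgeR adjusted p = 0.000708), and the largest fall was that of Acss2, which makes acetyl-CoA from acetate (-1.09, adjusted p = 0.000792). On chow, 4 of 16 were higher and none lower, with a median of 0.80 against -0.01. These were Acly, Acaca, Acacb and Elovl6, of which Elovl6, the elongase from palmitate to stearate, rose most (3.16, adjusted p = 0.00504). Its WT mean was 22.6 ± 9.11 CPM (SD, n = 7) against a KI mean of 203 ± 204 CPM (SD, n = 6). Without the libraries with markers of other tissues, only Acly was called on chow. On HFD in IngWAT, the rise of Acacb and the falls of Acss2, Me1, Hsd17b12 and Tecr were then no longer called. Hacd2 and Slc25a1 were still called lower, and Elovl3, not tested with all libraries, was called lower as well. Fasn, the fatty acid synthase, had log2 fold changes of -0.56, -0.92 and 1.99 (adjusted p of 0.670, 0.0312 and 0.0158) and Elovl6 of -0.66 and -0.41 in the sets on HFD (adjusted p of 0.354 and 0.213), none of them called.

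Of the genes listed for electron transfer to the desaturases, Cyb5r1, of the cytochrome b5 reductase family, rose in all 3 sets. In BAT its WT mean was 74.6 ± 10.6 CPM (SD, n = 6) against a KI mean of 218 ± 50.8 CPM (SD, n = 6), a log2 fold change of 1.504 (edgeR adjusted p = 3.66e-05). In IngWAT it rose by 1.58 on HFD (adjusted p = 6.25e-10) and by 1.88 on chow (adjusted p = 1.67e-07). It was the single call among 5 tested in BAT and among 6 on chow. On HFD in IngWAT, Cyb5b, the cytochrome b5 of the outer mitochondrial membrane, was called lower (-0.85, adjusted p = 1.15e-05), as 1 of 6. Medians of the list were 0.12, -0.02 and 0.08 against -0.01, 0.01 and -0.01 over all genes. Cyb5a, the cytochrome b5 of the endoplasmic reticulum, was not called (0.12, 0.37 and 0.12, adjusted p of 0.670, 0.0180 and 0.584). Cyb5r3, another reductase of the list, was not called either (-0.14, 0.08 and -0.24, edgeR adjusted p of 0.644, 0.639 and 0.221).

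Other desaturases were called in IngWAT on HFD, 2 higher and 1 lower of 6, in the set where 11.5% of all genes were called. Fads1, which makes polyunsaturated fatty acids, rose by 0.94 (edgeR adjusted p = 5.72e-06) and Degs1, the dihydroceramide desaturase, fell by 0.44 (adjusted p = 0.00559), while Fads3 was the other rise (0.41). Without the libraries with markers of other tissues Degs1 was not called and Degs2 was, as the 1 lower. No member of the 5 tested passed in BAT (1 at an unadjusted p below 0.05) or on chow (3 at an unadjusted p below 0.05), nor by DESeq2. Fads1 was at -0.20 and -0.51 there (adjusted p of 0.347 and 0.0373), and Fads2, which acts beside it, was at -0.45, 0.26 and -0.35 in the 3 sets (adjusted p of 0.0820, 0.119 and 0.369). Medians were 0.11, 0.33 and -0.35.

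Of 16 regulators, Insig1, which holds SREBP in the endoplasmic reticulum and is itself a target of SREBP, fell in IngWAT on HFD (-2.10, edgeR adjusted p = 2.04e-05), with a WT mean of 177 ± 86.1 CPM (SD, n = 8) against 40.9 ± 6.94 CPM (SD, n = 8). Mlxipl, which encodes ChREBP, rose there (0.54, adjusted p = 0.00448). None was called in BAT (5 at an unadjusted p below 0.05, none by DESeq2) or on chow (6 at an unadjusted p below 0.05, 3 by DESeq2), and medians were -0.08, 0.16 and 0.06. Srebf1, which encodes SREBP1, was at -0.26, 0.23 and 0.88 (adjusted p of 0.348, 0.304 and 0.0291) and Pparg, the main adipocyte receptor, at 0.34, 0.29 and 0.28 (adjusted p of 0.114, 0.127 and 0.341), none called.

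Of 10 genes listed as users of monounsaturated acyl-CoA, 1 was higher and 3 were lower in KI mice in IngWAT on HFD, where 5.24% of all genes were called lower. Soat2, which forms cholesteryl esters, rose by 2.35 (edgeR adjusted p = 9.58e-06) from a low level of 0.645 ± 0.303 CPM to 3.31 ± 0.893 CPM (SD, n = 8 each). Acsl1, the main acyl-CoA synthetase of adipocytes, fell by 1.13 (adjusted p = 0.00012), and Agpat2 and Dgat1 of triglyceride synthesis were the other falls. Acsl1 was on the list although a synthetase forms acyl-CoA and does not use it. Without the libraries with markers of other tissues Agpat2 and Dgat1 were not called, and the falls called were those of Acsl1 and Soat1. On chow Soat2 was the single call (3.45, adjusted p = 0.000417), and in BAT none of 9 was called (3 at an unadjusted p below 0.05, none by DESeq2). Medians were -0.05, -0.40 and 0.34, against -0.01, 0.01 and -0.01 over all genes. Without the libraries with markers of other tissues, Soat2 was tested and called in BAT as well.

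**Figure D5:**
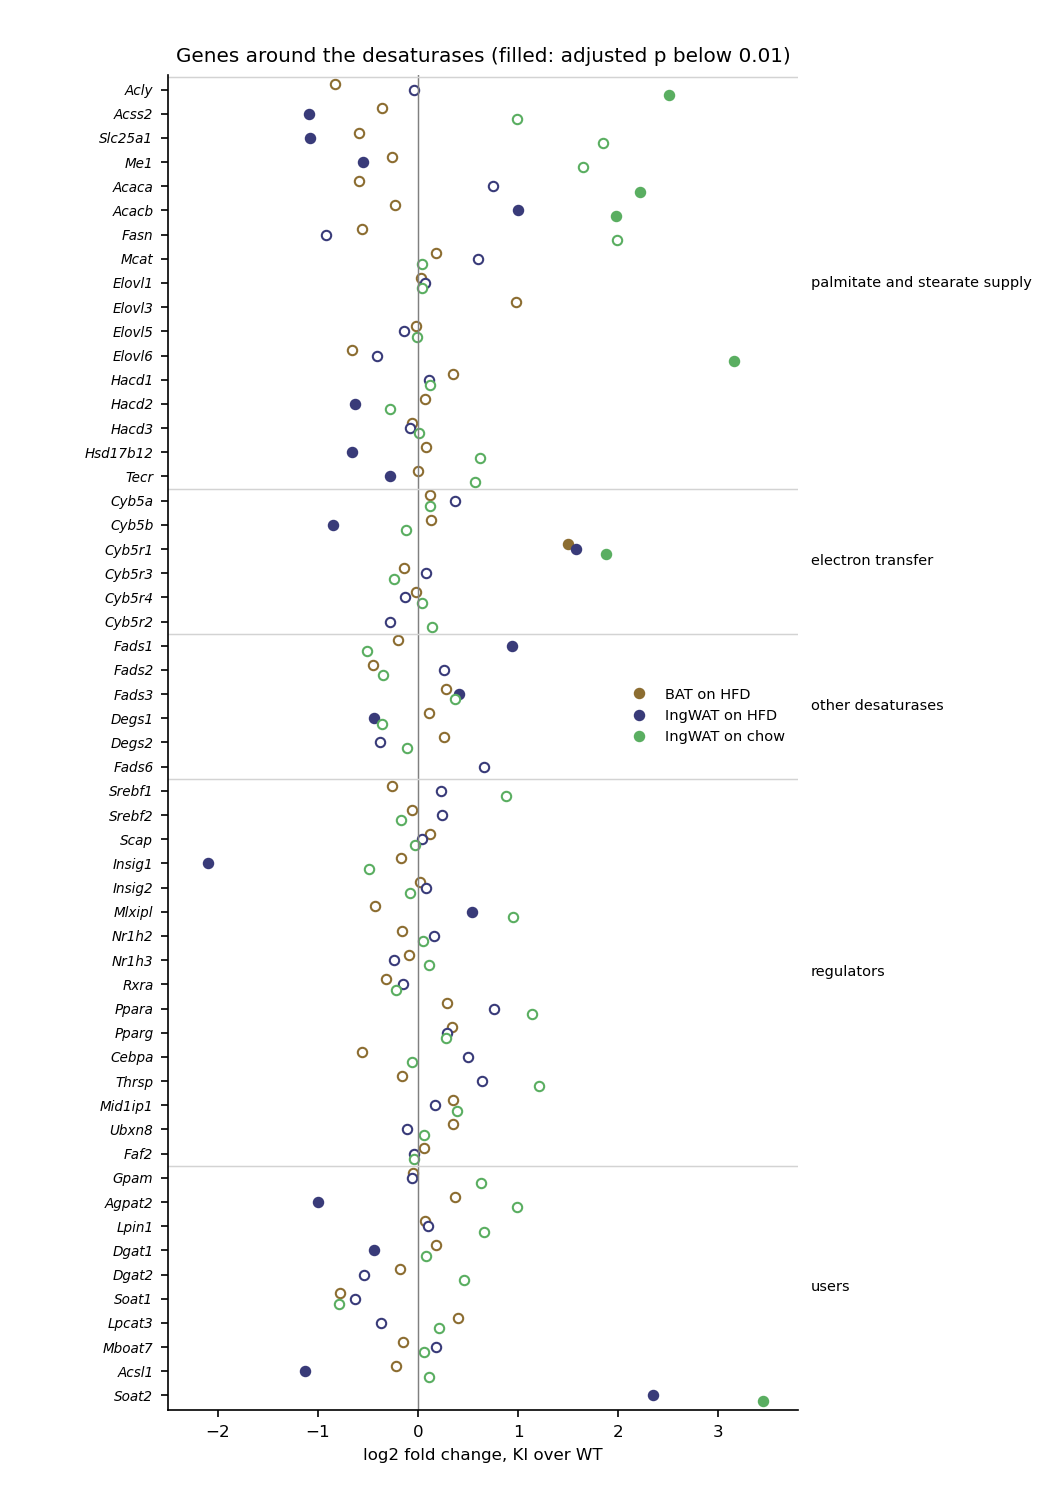
Log2 fold change (KI over WT) of the listed genes in BAT on HFD, IngWAT on HFD and IngWAT on chow, grouped by role, filled where the edgeR adjusted p was below 0.01. Cyb5r1 is filled in all 3 sets, 4 supply genes are filled to the right on chow, and Insig1 lies at -2.10 in IngWAT on HFD.

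Across the 41 samples, with each value taken as its distance from the group mean, the genes most like each member were ranked, and Me1 was among the nearest of both Scd1 and Scd2. These correlations are of log2 CPM over 13034 genes and share library and depth within a mouse, and are given as a description. For Scd1 the nearest were Snx10 (r = 0.85, rho = 0.82), Pdha1 (0.84, 0.77), Dlat (0.83, 0.74), Me1 (0.81, 0.73) and Map3k15 (0.80, 0.72). For Scd2 these were Sqle (0.84, 0.75), Cyb5b (0.82, 0.80), Nsdhl (0.80, 0.71), Me1 (0.79, 0.66) and Acss2 (0.79, 0.68). For Scd3 the nearest was Plin2, which coats lipid droplets (0.69, 0.67), then Myo5a (0.64, 0.55), Srxn1 (0.61, 0.57), Sirpa (0.61, 0.52) and Atp6v1b2 (0.58, 0.51).

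Without the 2 samples farthest from the median of the member, the r of the nearest gene was 0.74 for Snx10 with Scd1, 0.78 for Sqle with Scd2 and 0.64 for Plin2 with Scd3. Within BAT, IngWAT on HFD and IngWAT on chow, r was 0.97, 0.65 and 0.68 for Snx10 with Scd1, 0.90, 0.69 and 0.81 for Sqle with Scd2, and 0.86, 0.61 and 0.56 for Plin2 with Scd3. Between members, r was 0.52 for Scd1 and Scd2, 0.38 for Scd1 and Scd3, and 0.55 for Scd2 and Scd3. Of 13034 genes, 666 had a larger r to Scd1 than Scd2 had, and 1751 than Scd3 had. For r to Scd2, 193 genes exceeded Scd1 and 124 exceeded Scd3. For r to Scd3, 428 genes exceeded Scd1 and 14 exceeded Scd2. Scd3 in WT mice rests on 9 counts or fewer. For Scd1 and Scd3, r was 0.64 within BAT but 0.03 in IngWAT on HFD and 0.21 on chow.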

How the data were processed

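RNA from 41 samples, 1 per mouse and tissue, was sequenced in 3 sets with paired-end reads of 150 bases. Per the labels and the study's methods, adapters were trimmed with cutadapt, reads were aligned to GRCm38 with STAR, sorted with SAMtools and counted with featureCounts. The versions and the handling of reads with several matches or of strand are not given in the sources used here. The labels and methods give 5 weeks as the age at the start of the diet, while some legends of the study give 7 weeks. The deposited values are raw counts per gene, 1 column per mouse. Of 54838 entries per table, 1884 without a length or a count were left out, and repeated symbols with identical counts were kept once.

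Each set was fitted with edgeR 4.0.16 (R 4.3.3, TMM, filterByExpr, robust quasi-likelihood test, Benjamini-Hochberg adjustment over all genes passing the filter), and a gene was called at an adjusted p below 0.01. DESeq2 1.42.0, the study's tool, was an alternative. CPM used TMM factors over all 41 libraries. Diet and tissue contrasts used fits of the joined sets. Ratios were compared with 2-sided exact permutation tests after adding 0.5 counts. The fits were tested on simulated data. Sequences were compared with GENCODE vM21 transcripts.

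The members and lists were chosen with earlier results of these data known. Named from each list were the called genes with the largest rise and fall, plus Fasn, Elovl6, Srebf1, Cyb5a, Fads1, Fads2 and Pparg. Acly, Acaca, Fads3, Agpat2, Dgat1, Elovl3, Hacd2, Slc25a1, Me1, Hsd17b12, Tecr, Degs2, Soat1, Mid1ip1 and the markers Itgax, Cidea and Krt79 were named after their values were seen, to complete counts of 5 or fewer. Cyb5r3 was also named after its values were seen. Leaving out libraries with markers of other tissues (summed lymphocyte, skeletal muscle or simple epithelium markers more than 10 times the group median and above 50 CPM), and leaving out single mice in the diet and tissue contrasts, were also chosen after seeing the data. Mouse numbers are shared between genotypes, but deviations of same-numbered mice correlated at -0.32 to 0.71, so the numbers were not taken as pairs. Depth limits the precision of Scd3 in WT mice and of Scd4, which rest on 17 counts or fewer per mouse. A count of 0 allows up to 3 counts, for counting error only.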

Additional observations from a re-analysis of the deposited data

Results flagged for a closer look

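Of 30 groups of values examined for a single mouse far from the others, 7 were flagged, and all mice stayed in the main fits. Chance gives about 1 in 20 for normally distributed values, which low counts are not. In BAT, Scd1 in KI mouse 5 was 23174 CPM and the next KI mouse had 7203 CPM. Scd2 in BAT WT mouse 5 was 175 CPM against 72.1 CPM in the next mouse. Scd3 was 0.426 CPM in IngWAT HFD WT mouse 4, with the next at 0.183 CPM, and 15.1 CPM in chow KI mouse 1, with the next at 5.76 CPM. Scd4 stood apart in BAT WT mouse 5 (0.560 CPM, next 0.155), BAT KI mouse 6 (0.481 CPM, next 0.145) and chow WT mouse 4 (0.450 CPM, next 0.188), each on 6 counts or fewer.

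The KI effect on Scd2 in IngWAT differed between the diets by -2.35 on the log2 scale in a test of the difference itself (edgeR adjusted p = 0.00506). That call was near the threshold of 0.01 and was lost in 4 of 29 fits that left out a single mouse. It was also lost in a fit of all 6 groups together and without the libraries with markers of other tissues.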

How the results depend on the processing

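The fall of Scd2 in IngWAT on HFD kept its direction and its call under every alternative run (-2.06 to -1.82 leaving out single mice). Without the 13 libraries with markers of other tissues, log2 differences that turned were -0.29 for Scd1 and -0.38 for Scd2 between genotypes on chow, 0.52 for Scd1 between diets in the KI effect, 0.74 for Scd3 between diets in WT mice and 0.030 for the chow ratio of Scd1 to Scd2. Calls lost there were those of Scd2 in the diet difference of the KI effect (-1.66), between diets in KI mice (-0.98) and between tissues in WT mice (-0.93). Scd3 between diets in KI mice, described without a test, came to -1.40. These fits hold fewer mice. One fit of all 6 groups gave -2.38 for Scd2 in the diet difference, no longer called. The cause was not tested.

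Leaving out single mice gave these ranges where a direction or a call changed. Scd1 between genotypes ranged from -0.026 to 0.17 in IngWAT on HFD and from -0.18 to 0.26 on chow. The KI effect differed between diets by -0.19 to 0.26 for Scd1 and by -2.53 to -2.05 for Scd2, and between tissues by -1.90 to -0.89 for Scd1. HFD over chow gave -0.49 to 0.63 for Scd3 in WT mice. In KI mice it gave -1.80 to -1.14, a description that kept its direction. BAT over IngWAT gave -2.03 to -1.19 for Scd2 and -0.64 to 0.84 for Scd3 in WT mice, and -1.61 to -0.66 for Scd1 in KI mice. The chow ratio ranged from -0.45 to 0.058.

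Supply genes called higher came to 0 (left-out libraries) or 3 (DESeq2) in IngWAT on HFD and 1 or 8 on chow, and 3 were called lower on HFD with the libraries left out. By DESeq2, in IngWAT on HFD 2 electron carriers and 3 regulators were higher and 5 users lower, and on chow 3 regulators and 2 users were higher. With the libraries left out, 1 regulator on chow (Mid1ip1) and 1 user in BAT (Soat2) were higher.

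Over all genes, calls numbered 715 (DESeq2) or 834 (all 6 groups) in BAT, 1242 (all 6 groups) in IngWAT on HFD and 1121 or 1088 on chow. At thresholds of 0.05 and 0.001 they numbered 952 and 59, 3448 and 880, and 1252 and 125. The diet difference gave 414 by DESeq2, 168 with at least 10 counts in every sample and 37 with the libraries left out, the tissue difference 844 by DESeq2 and 305 with the libraries left out, and the diet contrast of KI mice 2977 with them left out. With the replicate number as a block, Scd1 was -1.37, 0.09 and 0.09 and Scd2 -0.50, -1.90 and 0.05 in BAT, IngWAT on HFD and chow, with no call of a member changed, and 363, 1545 and 102 genes were called. In BAT, IngWAT on HFD and chow, 3 of 6, 1 of 8 and 1 of 6 pairs correlated best with their own number.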
